A study of Mus musculus with 36 samples.

Results

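Eosinophils of the gut, sorted from the small intestine and the colon, were compared with eosinophils of the lung and the skin. The mean of the small intestine and colon means was set against the mean of the lung and skin means, and the account centres on genes that moved the same way in all 4 tissue pairs. These 4 tissues hold 13 of the 36 samples of the series and 13 of the 24 samples of its tissue table, with 4 libraries of small intestine, 3 of colon, 3 of lung and 3 of skin. All 13 are total eosinophils of wildtype C57BL/6 mice. The mice were 8 to 12 weeks old and in steady state, with both sexes pooled, and the labels give no treatment or transgene. The cells were flow-sorted, and full-length cDNA libraries were made from bulk RNA with Smart-seq2. The members are 255 genes of 9806 tested (2.6%). Of these, 199 were higher in gut (2.03% of the genes tested) and 56 were lower in gut (0.571%) in each of small intestine against lung, small intestine against skin, colon against lung and colon against skin. A gene was counted where all 4 changes had 1 sign and the largest of the 4 limma p-values stayed under 0.05 after Benjamini-Hochberg adjustment over all genes. That adjusted p is the one given below unless another is named. The 4 tissues come from the labels, but the genes were selected on these same libraries, so their change in gut describes the selection.

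Eosinophils are granulocytes that mature in the bone marrow under interleukin 5 and reach tissues through the blood. At steady state the gut lamina propria holds a large resident population, which lives longer than blood eosinophils and is exposed to food, microbial metabolites and ligands of the aryl hydrocarbon receptor. Lung and skin hold smaller numbers at rest. The endoplasmic reticulum, where secreted and membrane proteins fold, answers an excess of unfolded protein by raising chaperones through the factors XBP1, ATF6 and ATF4, which is called the unfolded protein response.

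This response gave the gene with the lowest adjusted p. The promoters of 3 of its chaperones, chosen because they held the element marked below, are shown from RefSeq on GRCm38.p6. Capitals mark the endoplasmic reticulum stress element, searched as CCAAT, 9 bases of any kind and CCACG on both strands in the 250 bases before the start site. For Hspa5 the window shown is chr2:34771910-34772089 on the plus strand, for Calr chr8:84846932-84847111 on the minus strand and for Hsp90b1 chr10:86705445-86705694 on the minus strand.
Hspa5: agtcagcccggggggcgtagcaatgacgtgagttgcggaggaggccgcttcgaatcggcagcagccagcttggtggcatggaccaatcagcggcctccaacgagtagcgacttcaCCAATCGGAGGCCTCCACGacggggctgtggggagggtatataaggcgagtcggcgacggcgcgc
Calr: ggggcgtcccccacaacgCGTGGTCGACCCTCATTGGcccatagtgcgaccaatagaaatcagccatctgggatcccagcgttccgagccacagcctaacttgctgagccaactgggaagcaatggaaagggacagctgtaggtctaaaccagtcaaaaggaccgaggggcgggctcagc
Hsp90b1: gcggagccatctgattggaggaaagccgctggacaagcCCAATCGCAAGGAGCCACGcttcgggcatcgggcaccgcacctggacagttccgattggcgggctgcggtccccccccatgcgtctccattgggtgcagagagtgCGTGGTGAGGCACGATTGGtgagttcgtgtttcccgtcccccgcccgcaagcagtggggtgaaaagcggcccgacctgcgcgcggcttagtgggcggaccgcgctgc
The Hspa5 element began 65 bases before the start site, the Calr element, on the opposite strand, 162 bases before it, and Hsp90b1 had 2 elements, 212 and 107 bases before it. The element was found in 37 of 32851 promoters of the same length (0.113%), in 8 of the 28 matched unfolded protein response genes (28.6%) and in 3 of the 155 promoters matched to the 199 higher genes (1.94%), which are the 3 printed. The 32851 promoters include those of genes not tested here. A match describes letters in this window and not a bound site.

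The sorted cells carried eosinophil receptors in all 13 libraries. Siglecf, a lectin receptor typical of mouse eosinophils, measured 218, 221, 293 and 347 TPM in small intestine, 245, 296 and 347 in colon, 139, 113 and 105 in lung and 251, 219 and 161 in skin, and Ccr3 and Il5ra, the receptors of eotaxins and interleukin 5, were also above 0 in every one. Epx, the eosinophil peroxidase gene, was at or below 1.70 TPM in each of them. Genes with at least 1 TPM numbered 8741 to 8922 per small intestine library, 8736 to 8873 in colon, 7770 to 7876 in lung and 8659 to 8782 in skin, so the lung had the fewest. TPM is a share of each library, and the depth behind it is unknown. The median gene was 0.58 and 0.56 higher in small intestine and colon than in lung, and had differences of −0.03 and −0.04 against skin, on log2(TPM + 1). Changes below are on that scale, for gut minus lung and skin. The median gene stood at 0.27 in that comparison, and this value was subtracted from every change of gut minus lung and skin. The adjusted p-values test each change against 0 before this shift. Changes of single tissue pairs and of small intestine minus colon were not shifted.

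Markers of other cells moved with the comparison in places, and their part in the results was not tested. Of 24 gut epithelium markers 6 were measured, and their summed level was 73.5 to 230 TPM in gut libraries and 7.06 to 39.8 TPM in lung and skin libraries. B and plasma cell markers (3 of 20 measured) summed to 75.2 to 1005 TPM in small intestine and at most 18.8 TPM in colon, lung and skin, with Jchain at 8.33, 27.2, 909 and 12.9 TPM in the 4 small intestine libraries. Without the third of these, small intestine replicate 3, all 4 pairs gave 174 higher and 52 lower genes. Macrophage and monocyte markers (11 of 20) summed to 1398 to 1764 TPM in small intestine, 1033 to 1349 TPM in colon, 1040 to 1330 TPM in lung and 2730 to 3565 TPM in skin. Lyz2 among them averaged 243 ± 59.8 TPM in small intestine, 19.7 ± 2.65 in colon, 0.743 ± 1.29 in lung and 81.1 ± 42.7 in skin (SD). Keratinocyte markers (4 of 15), a list that includes Perp, summed to 4.17 to 25.9 TPM in gut and 42.5 to 157 TPM in lung and skin. Mast cell and basophil markers (7 of 14) summed to 126 to 261 TPM in gut and 306 to 593 TPM in lung and skin, with the basophil protease Mcpt8 at 0 in all 13 libraries. Erythroid and platelet markers (11 of 15) ranged from 98.1 to 17812 TPM in small intestine, 123 to 384 TPM in colon, 2289 to 29172 TPM in lung and 86.7 to 1536 TPM in skin. Neutrophil markers (18 of 19) summed to 66368 to 75549 TPM in lung. They summed to 6343 to 8287 TPM in small intestine, 11928 to 14242 TPM in colon and 4497 to 12507 TPM in skin. The neutrophil list was dominated by Retnlg, at 70436 ± 4639 TPM in lung (SD, n = 3). In bulk samples, fewer cells of a type and less RNA per cell cannot be told apart.

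On average over tissues, 2888 genes were called higher in gut (29.5% of 9806) and 1090 lower (11.1%). All 255 genes called in every pair were also called on average. Counts of list members in all 4 pairs, given below, stand against 2.03% of all genes higher and 0.571% lower. Against lung alone, gut was higher for 3938 genes (40.2%) and lower for 932 (9.5%), and against skin alone for 1437 (14.7%) and 1460 (14.9%). Of the 199 higher genes, 191 had all 7 gut libraries above all 6 lung and skin libraries, which held for 4.97% of all genes, and of the 56 lower genes, 52 had all 7 below, which held for 2.05%. Since the libraries chose the genes, nothing is read from these shares. Their median change was 1.73 for the higher genes and −1.63 for the lower genes. Ptp4a1 lay just inside the threshold (smallest change of the 4 pairs 1.10, adjusted p = 0.0497) and Tbc1d15 just outside it (1.16, adjusted p = 0.0501). With only 2 tissues on each side, an exact two-sided permutation of tissues could not go below p = 0.333, so the tests measure the spread between libraries within tissues, and the labels do not say that replicates are separate animals.

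Scaling bore on the balance of directions. After median-ratio scaling 133 genes were higher and 92 lower in all 4 pairs, and after quantile normalization 125 and 79. The higher genes made up 78.0% of the calls with TPM as deposited, 59.1% after median-ratio scaling and 61.3% after quantile normalization. For the mean over tissues these shares were 72.6%, 57.1% and 47.4%. Under all 3 scalings 106 of the 199 higher genes and 45 of the 56 lower genes were called.

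**Figure D1:**
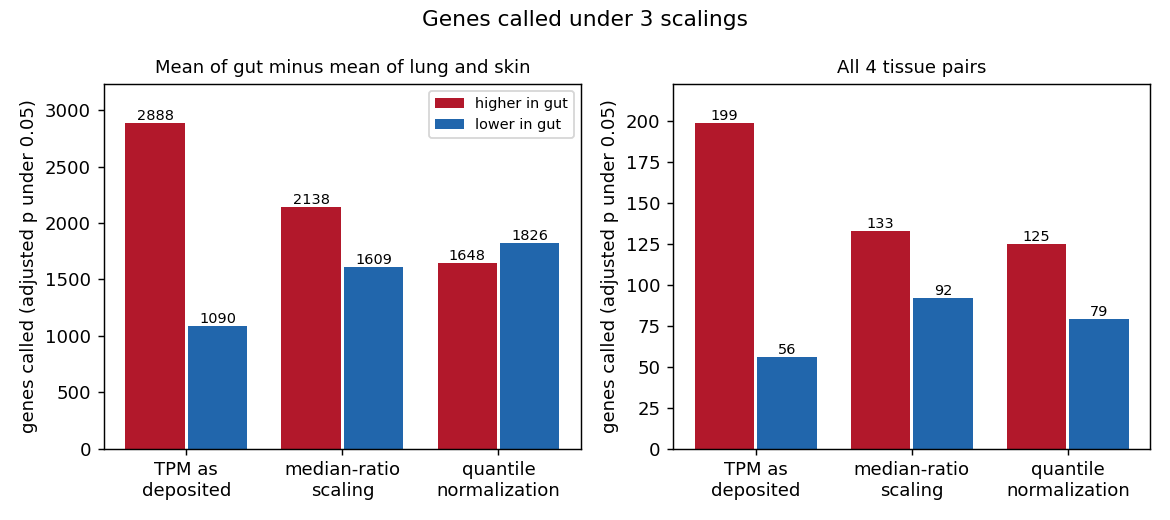
Number of genes called higher (red) or lower (blue) in gut eosinophils with TPM as deposited and under 2 other scalings, for the mean over tissues (left) and for all 4 tissue pairs (right). The 2888 and 1090 genes of the left panel became 1648 and 1826 after quantile normalization, and the 199 and 56 of the right panel became 125 and 79.

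The genes with the largest change kept by all 4 pairs encode enzymes, receptors and signalling proteins. Adamdec1, a secreted metalloprotease known from gut myeloid cells, measured 3357, 3182, 2988 and 3795 TPM in small intestine, 939, 927 and 846 in colon, 33.9, 16.9 and 63.7 in lung and 4.45, 12.3 and 28.3 in skin. Every gut library was more than 10 times every lung and skin library. Its gene lies on chromosome 14 (68563380 to 68582095, minus strand, mm10), its change was 6.09 ± 0.36 (SE) and its adjusted p was 2.6e-06.

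Osgin1, an oxidative stress gene regulated by NRF2, measured 507, 419, 334 and 271 TPM in small intestine, 811, 669 and 406 in colon, 9.05, 12.5 and 10.4 in lung and 2.52, 4.5 and 22.7 in skin (change 5.38 ± 0.30, SE; adjusted p = 1.7e-08). The colon had values as high as the small intestine, and the groups did not overlap. Hcar2, the receptor of niacin, butyrate and ketone bodies, measured 1265, 1305, 891 and 758 TPM in small intestine, 111, 128 and 81.8 in colon, 6.78, 17.4 and 3.5 in lung and 4.9, 16.4 and 4.68 in skin (adjusted p = 3.6e-05). Within the gut it was 3.28 higher in small intestine than in colon (adjusted p = 8.6e-06). Cd69, a lectin-like receptor that activated leukocytes display and that holds them in tissue, measured 380.3, 452, 476 and 331 TPM in small intestine, 472, 459 and 319 in colon, 37.2, 56.9 and 50.1 in lung and 44.4, 52.5 and 20.8 in skin (change 2.99 ± 0.22, SE; adjusted p = 6.2e-07). Small intestine and colon had about the same Cd69 level, with a difference of −0.02 (adjusted p = 0.991).

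Gngt2, a G protein gamma subunit, had the largest change (6.87 ± 0.57, SE; adjusted p = 2.3e-04) and measured 646, 629.7, 506 and 712 TPM in small intestine, 150.1, 196 and 87.03 in colon, 1.32, 0 and 0 in lung and 5.61, 4.04 and 0 in skin. Abi3, an actin regulator of the WAVE complex, averaged 141 ± 38.9 TPM in small intestine, 24.9 ± 3.74 in colon, 0.07 ± 0.121 in lung and 2.44 ± 2.47 in skin (SD, n = 4, 3, 3 and 3; adjusted p = 0.00177). The 2 genes share exon bases on opposite strands of chromosome 11 (95837216 to 95845734 and 95830074 to 95842476, mm10), so without strand information their reads cannot be told apart. Acp5, tartrate-resistant acid phosphatase of lysosomes, averaged 523 ± 89.3 TPM in small intestine, 42.5 ± 12.1 in colon, 4.303 ± 2.65 in lung and 3.04 ± 1.72 in skin (SD; adjusted p = 1.0e-05). Slco4a1, an organic anion transporter, averaged 139.8 ± 20.05 TPM in small intestine, 65.3 ± 5.72 in colon, 1.46 ± 1.39 in lung and 2.46 ± 0.8305 in skin (SD; adjusted p = 2.5e-08). Ggta1, which builds the alpha-galactose epitope of surface glycans, averaged 239 ± 52.9 TPM in small intestine, 17.9 ± 2.04 in colon, 1.79 ± 1.68 in lung and 1.59 ± 0.705 in skin (SD; adjusted p = 4.0e-04).

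The other leading higher genes included a feedback inhibitor and a clock gene. Socs2, a feedback inhibitor of cytokine receptors that STAT5 induces, averaged 160.1 ± 70.9 TPM in small intestine, 243 ± 50.97 in colon, 18.8 ± 1.11 in lung and 12.9 ± 10.2 in skin (SD; adjusted p = 3.3e-04). Ciart, a repressor of the circadian clock, averaged 33.2 ± 23.6 TPM in small intestine, 25.5 ± 12.05 in colon, 0.0667 ± 0.115 in lung and 3.07 ± 2.71 in skin (SD; adjusted p = 0.00358). Of 13 clock genes tested, 6 were higher on average (46.2%, against 29.5% of all genes) and the other 7 were not called. Ciart alone was called in all 4 pairs. That call of Ciart was lost with only the 4 tissues in the fit (no bone marrow, blood or spleen), and that of Socs2 at a pseudocount of 0.1 in place of 1. Tmem273 and Amz1, the second a metallopeptidase that shares exon bases with Gna12, had changes of 4.31 and 2.84 (adjusted p = 0.001795 and 1.4e-04).

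**Figure D2:**
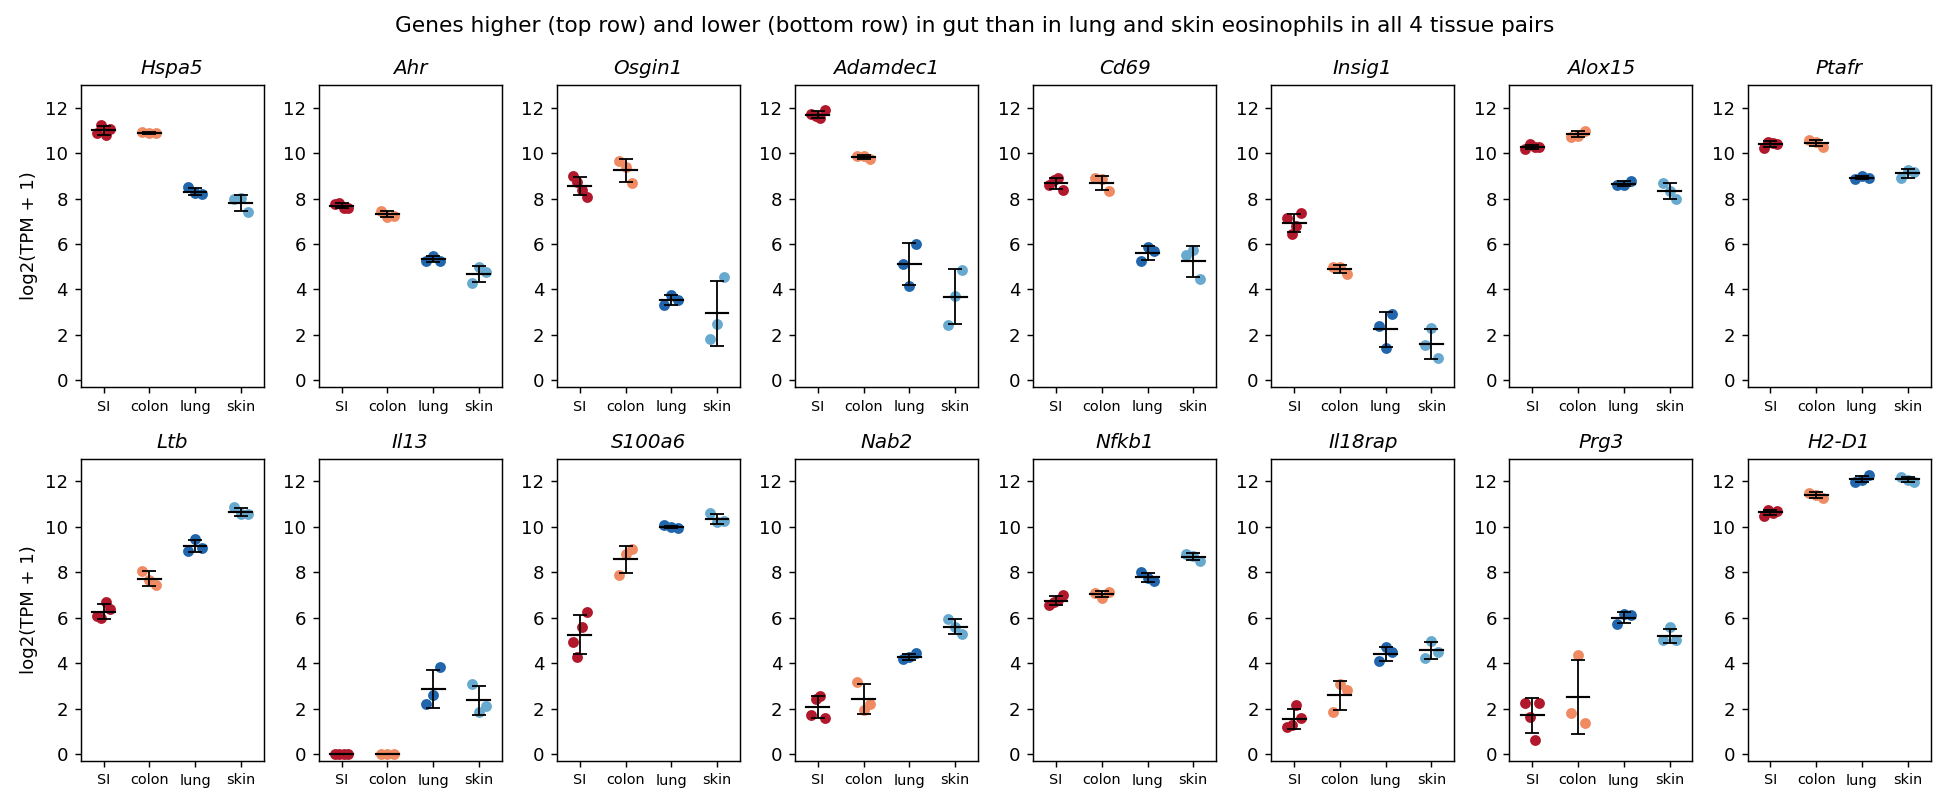
Level of 8 genes higher in gut (top) and 8 lower in gut (bottom) in each of the 13 libraries, as log2(TPM + 1), with small intestine (SI, 4 libraries) and colon (3) left of lung (3) and skin (3). Points are libraries and bars are mean and SD; Hspa5, for example, was between 1800 and 2430 TPM in gut and between 170 and 359 TPM in lung and skin, and Il13 was at 0 in all gut libraries.

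Chaperones and 3 of 5 listed transcription factors of the unfolded protein response were higher in gut. Of 31 genes of this response, all tested, 24 were higher on average over tissues (77.4%, against 29.5% of all genes). Another 1 was lower (3.23%, against 11.1%), and 8 of the 31 were higher in all 4 pairs. The median change of the 31 was 1.01, where the median of all genes is 0 by construction. All 15 chaperones and folding enzymes of the list were higher on average. The list had 23 higher genes after median-ratio scaling and 22 after quantile normalization, with 8 and 6 in all 4 pairs, and Calr (calreticulin) lost its call in all 4 pairs under both.

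Hspa5 encodes BiP, the main chaperone of the endoplasmic reticulum, and its promoter is the first of the 3 printed. It measured 1900.4, 2430.4, 1799.7 and 2149 TPM in small intestine, 1929, 1862 and 1883 in colon, 359, 299 and 291 in lung and 253, 259.6 and 169.9 in skin. Gut libraries were at least 5 times as high as any lung or skin library, and small intestine and colon were close to each other. The change was 2.61 ± 0.12 (SE) and the adjusted p was 1.2e-09. Ddit3, the stress factor CHOP, which ATF4 induces, measured 1235, 898, 724 and 446 TPM in small intestine, 701, 969.9 and 526 in colon, 32.1, 66.4 and 28.8 in lung and 116, 153 and 52.2 in skin (change 3.28 ± 0.24, SE; adjusted p = 9.9e-06). Its values varied among small intestine libraries but stayed above the highest skin value, and the annotation holds a second gene model with the same symbol. Dnajb9, a BiP cofactor induced by XBP1, averaged 99.4 ± 28.8 TPM in small intestine, 124 ± 32.6 in colon, 8.25 ± 4.18 in lung and 27.1 ± 3.53 in skin (SD; adjusted p = 7.4e-04).

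Of 5 transcription factors of the response in the list, Ddit3, Xbp1 and Atf4 were higher in all 4 pairs. Another of the 5 was lower on average and is the 1 lower gene of the list. Of the 3 sensors listed, 1 was higher on average and none was lower. Xbp1, also needed for eosinophils to mature, averaged 185 ± 26.3 TPM in small intestine, 161 ± 12.2 in colon, 27.8 ± 7.77 in lung and 62.5 ± 12.3 in skin (SD; adjusted p = 0.00573). Atf4, the factor of the integrated stress response, averaged 1087 ± 357 TPM in small intestine, 1065 ± 174 in colon, 289 ± 6.49 in lung and 428 ± 70.3 in skin (SD; adjusted p = 3.2e-04). Hsp90b1, the chaperone GRP94, averaged 656 ± 123 TPM in small intestine, 578 ± 48.8 in colon, 89.4 ± 11.9 in lung and 251 ± 34.8 in skin (SD; adjusted p = 2.3e-04), and Calr, the calcium-binding chaperone calreticulin, 189.9 ± 15.6 TPM in small intestine, 147 ± 12.7 in colon, 49.2 ± 11.4 in lung and 56.9 ± 12.1 in skin (SD; adjusted p = 0.005298). Herpud1, a factor of protein degradation at the endoplasmic reticulum, shows a gene that was called on average only: it averaged 421 ± 143 TPM in small intestine, 848 ± 166 in colon, 133 ± 36.3 in lung and 682 ± 119 in skin (SD), with skin within the range of the gut tissues and a change of 0.70 (adjusted p for the mean over tissues = 6.0e-05).

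Genes of the aryl hydrocarbon receptor pathway were also higher. The receptor binds dietary, microbial and pollutant ligands, pairs with ARNT and induces, among others, its own repressor AHRR and the ADP-ribosyltransferase TIPARP. Of 11 listed genes 8 were tested, and 7 were higher on average (87.5%, against 29.5% of all genes). In all 4 pairs 3 were higher, and Arnt was the 1 not called on average. Ahr itself measured 217, 220.3, 191 and 189.9 TPM in small intestine, 175, 147 and 150.4 in colon, 37.5, 43.4 and 37.1 in lung and 18.4, 30.4 and 26.1 in skin (change 2.22 ± 0.13, SE; adjusted p = 2.7e-07). Each gut library had more than 3 times the highest lung or skin value. Ahrr measured 21.2, 12.2, 18.7 and 13.1 TPM in small intestine, 5.65, 7.77 and 3.58 in colon, 0.35, 0 and 0.07 in lung and 0, 0 and 0.35 in skin (adjusted p = 5.9e-05), so it was near 0 outside the gut and higher in small intestine than in colon by 1.39 (adjusted p = 0.00404). Tiparp averaged 309 ± 67.2 TPM in small intestine, 187 ± 36.2 in colon, 70.9 ± 13.7 in lung and 56.5 ± 36.3 in skin (SD; adjusted p = 0.0273), and its call in all 4 pairs was lost under both other scalings, at a pseudocount of 0.1, with the replicate number as a block and without any 1 of lung replicates 2 and 3 and colon replicates 1 and 2 (highest adjusted p = 0.146, without colon replicate 1).

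The promoter of Ahrr is printed because it held the core xenobiotic response element, searched as TNGCGTG on both strands, in capitals 29 bases before the start site (chr13:74292332-74292511, minus strand, RefSeq, GRCm38.p6).
Ahrr: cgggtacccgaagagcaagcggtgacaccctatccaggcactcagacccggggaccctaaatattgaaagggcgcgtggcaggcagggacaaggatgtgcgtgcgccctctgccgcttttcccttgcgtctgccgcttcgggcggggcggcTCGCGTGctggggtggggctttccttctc
That short motif was in 4.10% of all promoters and in 13 of the 155 matched promoters of the higher genes (8.39%). Of 5 matched promoters of this pathway, 1 held it, that of Ahrr. Another motif searched, the AP-1 site (TGANTCA), was in 6.75% of all promoters and 7.1% of the same 155. All promoters include those of genes not tested here, so the sets compared are not alike. Cyp1b1, the xenobiotic-metabolising oxygenase that the receptor induces, differed within the gut. It measured 72.2, 68.4, 27.6 and 37.1 TPM in small intestine, 0.65, 0.89 and 0.55 in colon, 0, 0 and 0.1 in lung and 0, 0.84 and 0.25 in skin, so its high level was in small intestine, 4.84 above colon (adjusted p = 1.9e-10), and colon libraries were near lung and skin. Arnt, the partner of the receptor, averaged 22.3 ± 6.45 TPM in small intestine, 17.2 ± 6.26 in colon, 9.5 ± 5.68 in lung and 24.2 ± 3.09 in skin (SD), with a change of 0.09 that did not pass the test (adjusted p for the mean over tissues = 0.244).

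Enzymes of sterol synthesis were higher in gut eosinophils. This pathway makes cholesterol from acetyl-CoA and is switched on by SREBP2 when sterols in the endoplasmic reticulum are low, while INSIG1 holds SREBP2 back. Of 28 genes tested, 21 were higher (75%, against 29.5% of all genes) and 1 lower (3.57%, against 11.1%) on average. In all 4 pairs 5 were higher, and the 28 had a median change of 1.85. Of the 18 synthesis enzymes 16 were higher on average. Both other scalings kept 5 in all 4 pairs and gave 21 and 18 higher genes on average.

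Insig1 measured 138, 86.6, 109.8 and 162 TPM in small intestine, 30.9, 30.2 and 24.6 in colon, 4.22, 1.68 and 6.64 in lung and 1.91, 3.89 and 0.96 in skin (change 3.71 ± 0.32, SE; adjusted p = 9.5e-04). The small intestine stood above the colon and the colon above both lung and skin. Idi1, an isomerase early in the pathway, averaged 128 ± 44.9 TPM in small intestine, 26.2 ± 8.59 in colon, 2.02 ± 1.92 in lung and 3.39 ± 0.267 in skin (SD; adjusted p = 0.00252). Sc5d, a late desaturase, averaged 334 ± 30.7 TPM in small intestine, 139 ± 57.95 in colon, 27.7 ± 11.1 in lung and 13.8 ± 3.84 in skin (SD; adjusted p = 1.1e-04). Stard4, a carrier of cholesterol between membranes, averaged 72.6 ± 22.4 TPM in small intestine, 29.6 ± 7.14 in colon, 2.23 ± 1.01 in lung and 3.66 ± 0.471 in skin (SD; adjusted p = 7.7e-05), and Hsd17b7, another late enzyme, 16.5 ± 7.85 TPM in small intestine, 3.71 ± 1.66 in colon, 0.05 ± 0.0866 in lung and 0.25 ± 0.433 in skin (SD; adjusted p = 0.00579). All 5 were higher in small intestine than in colon, by 1.24 to 2.23 (highest adjusted p = 0.0208). Idi1 lost its call in all 4 pairs at a pseudocount of 0.1, and Hsd17b7 at a pseudocount of 5 and with only the 4 tissues in the fit. Srebf2, the gene of SREBP2, averaged 224 ± 7.297 TPM in small intestine, 80.9 ± 6.96 in colon, 58.7 ± 11.5 in lung and 35.8 ± 4.76 in skin (SD), and its colon and lung levels were too close for a call in all 4 pairs (adjusted p = 0.426).

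Eicosanoids are lipid mediators made from arachidonic acid, and eosinophils are a known source of leukotrienes and of 12/15-lipoxygenase products. Of 18 synthesis genes tested, 10 were higher (55.6%, against 29.5% of all genes) and 1 lower (5.56%, against 11.1%) on average. In all 4 pairs 4 were higher. Alox15, the 12/15-lipoxygenase, measured 1149.9, 1362, 1219 and 1229 TPM in small intestine, 1694, 1749.7 and 2025 in colon, 383, 382 and 437 in lung and 410, 324 and 250.2 in skin (change 1.79 ± 0.12, SE; adjusted p = 3.0e-07). Colon libraries were highest, −0.55 for small intestine minus colon (adjusted p = 0.0195). Lta4h, the hydrolase that makes leukotriene B4, measured 1076, 1047, 1040.4 and 1234 TPM in small intestine, 342, 319 and 332 in colon, 176, 143 and 144 in lung and 142, 122 and 121 in skin (adjusted p = 3.9e-05). Here the small intestine was about 3 times the colon, and both exceeded lung and skin. Ptgs1, cyclooxygenase 1, measured 39.97, 31.9, 25.1 and 32.2 TPM in small intestine, 15.6, 17.4 and 39.4 in colon, 0, 0 and 0 in lung and 4.06, 3.63 and 0 in skin (adjusted p = 4.8e-04) and was thus listed at 0 in all lung libraries. Alox5, the first enzyme of leukotriene synthesis, averaged 231 ± 25.4 TPM in small intestine, 309 ± 43.7 in colon, 161 ± 9.62 in lung and 121 ± 34.4 in skin (SD), was called on average (0.67 ± 0.12, SE; adjusted p = 3.9e-07) but not in all 4 pairs (adjusted p = 0.0986).

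Receptors and adhesion molecules went both ways on average. The members named from these lists are ones called higher in all 4 pairs. Of 15 chemokine and chemoattractant receptors, 7 were higher (46.7%, against 29.5% of all genes) and 5 lower (33.3%, against 11.1%) on average. In all 4 pairs 4 were higher. On average, median-ratio scaling gave 6 higher and 6 lower, and quantile normalization 5 and 6. Ptafr, the receptor of platelet-activating factor, measured 1193, 1443, 1404 and 1335 TPM in small intestine, 1527, 1425 and 1249.5 in colon, 465, 515 and 472 in lung and 477, 613 and 566 in skin (change 1.13 ± 0.10, SE; adjusted p = 1.9e-06). Ccrl2, an atypical receptor that presents chemerin, averaged 2233 ± 279.8 TPM in small intestine, 1701 ± 387 in colon, 478 ± 67.3 in lung and 92.8 ± 35.6 in skin (SD; adjusted p = 4.0e-04), and its skin level was below its lung level. Gpr183, the oxysterol receptor EBI2, averaged 37.9 ± 11.4 TPM in small intestine, 37 ± 5.92 in colon, 7.24 ± 1.195 in lung and 9.39 ± 2.36 in skin (SD; adjusted p = 6.9e-04).

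Of 30 adhesion molecules, 9 were higher on average (30%, near the 29.5% of all genes) and 11 lower (36.7%, against 11.1%). In all 4 pairs 3 were higher. Median-ratio scaling gave 6 higher and 12 lower, and quantile normalization 6 and 13. Itgax, the integrin CD11c, measured 313, 286, 317 and 337 TPM in small intestine, 109, 83.7 and 74.5 in colon, 10.3, 10.9 and 18.1 in lung and 4.68, 1.84 and 6.21 in skin (change 4.08 ± 0.29, SE; adjusted p = 2.5e-04). Every gut library was at least 4 times every lung and skin library, and small intestine exceeded colon. Pecam1, the junction molecule CD31, averaged 154 ± 14.7 TPM in small intestine, 101 ± 10.1 in colon, 24.6 ± 6.62 in lung and 14.6 ± 10.02 in skin (SD; adjusted p = 2.3e-04). Icam1, a ligand of integrins, averaged 491 ± 64.6 TPM in small intestine, 403 ± 37.95 in colon, 128 ± 7.65 in lung and 137 ± 68.3 in skin (SD; adjusted p = 0.00156).

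Further receptors were higher in all 4 pairs. P2ry14, the UDP-glucose receptor, averaged 526 ± 73.2 TPM in small intestine, 349 ± 33.8 in colon, 69.6 ± 7.65 in lung and 220.3 ± 17.9 in skin (SD; adjusted p = 0.00603). Il1r2, the decoy receptor of interleukin 1, averaged 2407 ± 303 TPM in small intestine, 435 ± 209.9 in colon, 124 ± 29.7 in lung and 30.9 ± 9.58 in skin (SD; adjusted p = 0.00942), 2.56 higher in small intestine than in colon, and its call in all 4 pairs was lost after median-ratio scaling, at a pseudocount of 0.1 and without colon replicate 4 (adjusted p = 0.101). Nmur1, the neuromedin U receptor of the series title, is not among these genes: it measured 47.4, 7.55, 24.4 and 26.1 TPM in small intestine libraries and was listed at 0 in all colon, lung and skin libraries. Cd300lf, an inhibitory receptor, averaged 1289 ± 121 TPM in small intestine, 1120.3 ± 278 in colon, 316 ± 36.1 in lung and 407 ± 70.6 in skin (SD; adjusted p = 1.3e-04), and Tlr13, a sensor of bacterial ribosomal RNA, 103 ± 19.9 TPM in small intestine, 77.4 ± 8.74 in colon, 15.2 ± 5.64 in lung and 14.6 ± 3.14 in skin (SD; adjusted p = 1.1e-05).

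**Figure D3:**
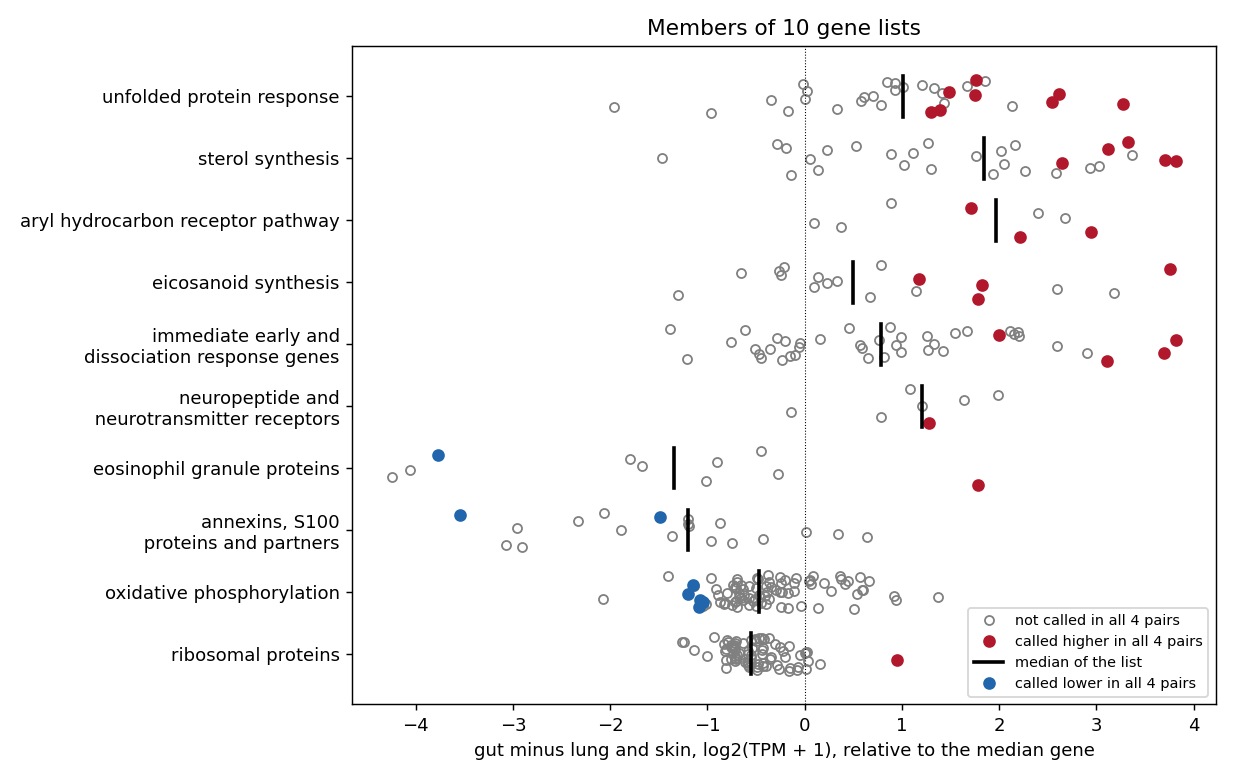
Change of each tested member of 10 gene lists, gut minus lung and skin on log2(TPM + 1), relative to the median gene (dotted line). Filled points were called in all 4 tissue pairs (red higher, blue lower) and black bars are list medians: sterol synthesis is centred at 1.85, the unfolded protein response at 1.01, and annexins, S100 proteins and partners at −1.20.

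Immediate early genes, which cells switch on within minutes of a stimulus and also during tissue digestion, were higher in gut. Of 42 tested, 25 were higher (59.5%, against 29.5% of all genes) and 2 lower (4.76%, against 11.1%) on average. In all 4 pairs 4 were higher. These are Jun, Atf3, Mafk and Egr2, all transcription factors. Jun measured 233, 110.3, 156 and 52.95 TPM in small intestine, 455, 545 and 381 in colon, 9.49, 3.89 and 1.88 in lung and 34.9, 38.2 and 33.1 in skin (adjusted p = 0.0172), with −1.91 for small intestine minus colon (adjusted p = 0.00192). Atf3 averaged 441 ± 221 TPM in small intestine, 244 ± 59.5 in colon, 27.1 ± 7.997 in lung and 33 ± 13.5 in skin (SD; adjusted p = 5.5e-04), and Egr2 averaged 195 ± 25.9 TPM in small intestine, 65.6 ± 7.67 in colon, 4.63 ± 3.301 in lung and 12.01 ± 9.38 in skin (SD; adjusted p = 0.00526). Mafk averaged 238 ± 61.05 TPM in small intestine, 103 ± 23.7 in colon, 27.2 ± 9.82 in lung and 37.5 ± 7.09 in skin (SD; adjusted p = 0.0115), and shares exon bases with Tmem184a. The call of Jun was lost without either of 2 skin or 2 small intestine libraries (highest adjusted p = 0.081, without small intestine replicate 1), and that of Mafk without skin replicate 4 or colon replicate 2 (0.0528 and 0.0885). Of the 42 genes, 21 were lower and 2 higher in small intestine than in colon (background 7.1% and 5.63%). The labels do not say how each tissue was dissociated, and its part in these values cannot be told apart from the tissue.

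Genes of redox and iron handling included 4 of 35 called higher in all 4 pairs, with 17 higher (48.6%, against 29.5% of all genes) and 7 lower (20%, against 11.1%) on average. Median-ratio scaling gave 2 higher and 2 lower in all 4 pairs, and quantile normalization 3 higher. Slc40a1, the iron exporter ferroportin, averaged 407 ± 126 TPM in small intestine, 81.5 ± 33.8 in colon, 11.3 ± 5.98 in lung and 17.1 ± 11.6 in skin (SD; adjusted p = 0.00217). Cybb, the catalytic subunit of the NADPH oxidase, had a change of 1.22 ± 0.11 (SE; adjusted p = 0.00252), and its call in all 4 pairs was lost under both other scalings. Nrros, a partner of latent TGF-beta that also limits the oxidase, measured 302, 359, 280.4 and 315 TPM in small intestine, 374, 358 and 294 in colon, 62.8, 66.6 and 72.7 in lung and 76.5, 85.97 and 63.8 in skin (change 1.91 ± 0.14, SE; adjusted p = 2.7e-07). Gut values were about 4 times those of lung and skin. Mmp25, a membrane metalloprotease of leukocytes, averaged 129 ± 11 TPM in small intestine, 126 ± 12.2 in colon, 35.5 ± 7.18 in lung and 43.8 ± 21.5 in skin (SD; adjusted p = 1.9e-04). Ldha, lactate dehydrogenase, was the 1 of 35 glycolysis and hypoxia genes called in all 4 pairs (change 0.72 ± 0.09, SE; adjusted p = 9.5e-05). That count is near the 2.03% of all genes higher in all 4 pairs. On average 14 of the 35 were higher (40%, against 29.5%) and 5 lower (14.3%, against 11.1%). Median-ratio scaling gave 13 and 7, and quantile normalization 9 and 6.

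The 56 genes lower in gut included cytokines and a cytokine receptor chain. Ltb, lymphotoxin beta, which organises lymphoid tissue, measured 65.4, 61.9, 101 and 81.6 TPM in small intestine, 269, 201 and 172 in colon, 489.6, 699 and 541 in lung and 1867, 1534 and 1494 in skin (change −3.19 ± 0.13, SE; adjusted p = 3.6e-05). Its 4 tissues stood in the order small intestine, colon, lung and skin, with no overlap between neighbours. Il13, the type 2 cytokine interleukin 13, was listed at 0 in all 7 gut libraries and measured 3.56, 5.03 and 13.1 TPM in lung and 7.54, 2.66 and 3.3 TPM in skin libraries (adjusted p = 4.8e-04). Il13 also marks group 2 innate lymphoid cells, and only 2 of the 9 markers listed for those cells were measured, Il13 among them. The pair summed to 0 to 14.1 TPM in gut libraries and 7.91 to 20.2 TPM in lung and skin libraries, and the part of such cells in the values was not tested. Il18rap, the accessory chain of the interleukin 18 receptor, averaged 2.03 ± 0.989 TPM in small intestine, 5.35 ± 2.44 in colon, 20.7 ± 4.53 in lung and 23.3 ± 6.497 in skin (SD; adjusted p = 0.00221).

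The transcription factor list had 16 of 42 genes higher on average (38.1%, against 29.5% of all genes) and 10 lower (23.8%, against 11.1%), with 3 higher and 1 lower in all 4 pairs. After median-ratio scaling 11 were higher and 10 lower, and after quantile normalization 10 and 10. Other regulators of transcription were among the 56. Nab2 and Nab1 encode corepressors that bind EGR factors, and Egr2, as given above, was higher. Nab2 measured 2.28, 4.41, 4.94 and 1.99 TPM in small intestine, 8.04, 2.83 and 3.55 in colon, 17.2, 18.04 and 20.7 in lung and 59.7, 47.9 and 38.03 in skin (adjusted p = 0.0103), and shares exon bases with Stat6 and Nemp1. Nab1 averaged 41.3 ± 6.13 TPM in small intestine, 49.6 ± 13.02 in colon, 108 ± 21.2 in lung and 128 ± 27.9 in skin (SD; adjusted p = 0.0185). Nfkb1, the p105 and p50 subunit of NF-kappaB, measured 93.6, 102, 108 and 127 TPM in small intestine, 136, 117 and 140.2 in colon, 256, 214 and 193 in lung and 451, 424 and 361 in skin (change −1.61 ± 0.12, SE; adjusted p = 0.0169). Of the 31 genes of that pathway 10 were higher on average (32.3%, near the 29.5% of all genes) and 7 lower (22.6%, against 11.1%), and other scalings turned this balance (8 and 10 after median-ratio scaling, 9 and 9 after quantile normalization). Nfkb1 was the 1 called lower in all 4 pairs. Maf, a factor of macrophages and T cells, was at most 1.5 TPM in gut libraries and between 2.59 and 6.57 TPM in lung and skin libraries (adjusted p = 0.00837). Zbtb7a and Mllt6, a transcriptional repressor and a chromatin protein, had changes of −2.27 and −2.46 (adjusted p = 0.00966 and 7.5e-04).

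A list of annexins, S100 proteins and partner genes was mostly lower in gut. Of 19 genes tested, 14 were lower (73.7%, against 11.1% of all genes) and 2 higher (10.5%, against 29.5%) on average. By part, 4 of 5 S100 genes, 4 of 8 annexins and all 6 partner genes were lower, and the 2 higher genes were annexins. S100a6 and S100a13 were lower in all 4 pairs, and the 19 had a median change of −1.20. S100a6 measured 29.1, 18.2, 46.9 and 74.8 TPM in small intestine, 235, 446 and 514 in colon, 1069, 1009 and 985 in lung and 1566, 1195 and 1209 in skin (change −3.54 ± 0.23, SE; adjusted p = 0.0144). The small intestine was far below the colon, with −3.32 for small intestine minus colon (adjusted p = 1.6e-08). S100a13 averaged 70.2 ± 8.18 TPM in small intestine, 106 ± 18.9 in colon, 197 ± 24.5 in lung and 204 ± 11.6 in skin (SD; adjusted p = 0.00169). S100a10 and Anxa1 were called on average but not in all 4 pairs (adjusted p = 0.0687 and 0.139), with 140.1 ± 34.9 TPM in small intestine, 782 ± 85.3 in colon, 1653 ± 144 in lung and 1133 ± 105 in skin (SD) for S100a10. Of the 19 genes, 14 were lower in small intestine than in colon and 1 higher (background 7.1% and 5.63%).

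Granule proteins include the cationic toxins that eosinophils store. Of 10 genes tested, 5 were lower (50%, against 11.1% of all genes) and 1 higher (10%, against 29.5%) on average. Prg3, the second major basic protein, was lower in all 4 pairs. It measured 3.77, 2.13, 0.55 and 3.77 TPM in small intestine, 2.52, 19.6 and 1.56 in colon, 52.2, 70.04 and 68.6 in lung and 31.6, 46.6 and 31.2 in skin (change −3.77 ± 0.42, SE; adjusted p = 0.0119), with 1 colon library above the others. Prg2, major basic protein itself, averaged 55.1 ± 20.2 TPM in small intestine, 83.2 ± 28.6 in colon, 185 ± 83.7 in lung and 205 ± 58.3 in skin (SD) and was not called in all 4 pairs (adjusted p = 0.419). The 1 granule-list gene higher in all 4 pairs was the enzyme gene Alox15.

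Of 87 oxidative phosphorylation genes, 32 were lower (36.8%, against 11.1% of all genes) and 17 higher (19.5%, against 29.5%) on average. In all 4 pairs 5 were lower, and the 87 had a median change of −0.47. Median-ratio scaling gave 45 lower and 8 higher genes, quantile normalization 43 and 8. Ndufb9, a complex I subunit, measured 212, 201, 199.5 and 202 TPM in small intestine, 202, 153 and 170.3 in colon, 334, 345 and 315 in lung and 364, 357 and 361 in skin (adjusted p = 0.004597). Cox6b1 of complex IV averaged 479 ± 4.88 TPM in small intestine, 509 ± 42.7 in colon, 757 ± 50.9 in lung and 989 ± 150.4 in skin (SD; adjusted p = 0.00358), and Ndufa4 had a change of −1.20 ± 0.13 (SE; adjusted p = 0.0103). Ribosomal protein genes had a median change of −0.55. Of 76, 41 were lower (53.9%, against 11.1%) and 6 higher (7.89%, against 29.5%) on average, and 1 was higher in all 4 pairs.

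Other lower genes included structural and surface proteins. H2-D1, a class I antigen-presenting molecule with close relatives that can share its reads, measured 1426, 1687, 1578 and 1669 TPM in small intestine, 2917, 2699.7 and 2453 in colon, 4082, 4234 and 4967 in lung and 4669, 4328 and 4066 in skin (change −1.36 ± 0.10, SE; adjusted p = 0.00596). Cd52, a small surface glycoprotein of leukocytes, averaged 653 ± 194 TPM in small intestine, 1360.4 ± 225 in colon, 3042 ± 348 in lung and 2699 ± 669.9 in skin (SD; adjusted p = 0.004302). Myl6, a myosin light chain, averaged 2071 ± 174 TPM in small intestine, 2880 ± 248 in colon, 4618 ± 296 in lung and 5042 ± 472 in skin (SD; adjusted p = 2.4e-04), and Fmnl1, an actin-nucleating formin, 15.3 ± 4.23 TPM in small intestine, 33.9 ± 1.21 in colon, 83.6 ± 8.72 in lung and 88.7 ± 18.8 in skin (SD; adjusted p = 0.00279). The calls of H2-D1 and Myl6 were lost after quantile normalization. Oaf, Nradd, Tmbim1, Perp, Sipa1l1 and Phlda1 complete the 14 leading lower genes, with changes of −3.95, −3.79, −2.71, −3.08, −2.59 and −2.61.

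Several of the calls lower in gut turned on single libraries. Leaving out colon replicate 2 lowered the 56 genes to 31, the lowest count over the 13 single-library omissions, and took the call from Nab1 (adjusted p = 0.11), Nab2 (0.0821), Nfkb1 (0.109), Sipa1l1 (0.254), Phlda1 (0.174) and Zbtb7a (0.0541). The highest adjusted p over those omissions was 0.155 for S100a6 and 0.0753 for Ndufa4 (both without colon replicate 1), 0.117 for Prg3 (without colon replicate 4), 0.0655 for Perp (without colon replicate 1), 0.126 for Nab1 and 0.0566 for Maf (both without lung replicate 3). Phlda1 lost its call without 12 of the 13 libraries and Sipa1l1 without 5. Of 79 named genes called in all 4 pairs, 62 kept the call without any 1 library. The named genes were chosen after stability was seen, so this share does not describe all members.

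**Figure D4:**
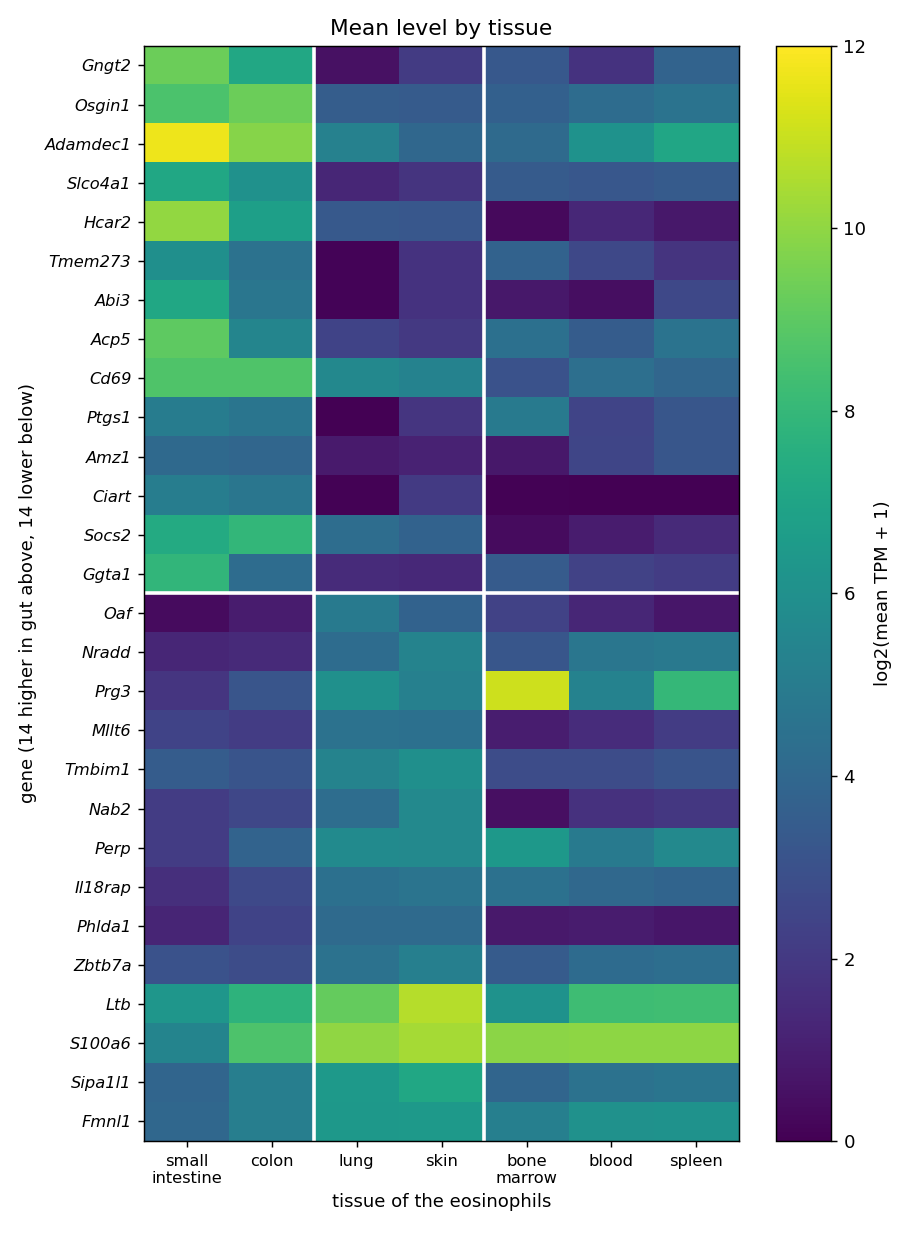
Mean level, as log2(mean TPM + 1), of the 14 leading genes higher in gut (above the white line) and the 14 lower in gut (below it) in eosinophils of small intestine, colon, lung and skin and, at the right, of bone marrow, blood and spleen. Adamdec1 and Acp5 are brightest in small intestine; Prg3 is brightest in bone marrow, S100a6 is bright everywhere but the small intestine, and Ciart is dark in the 3 circulating and lymphoid compartments.

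The shares of other lists are set against the 29.5% of all genes higher and the 11.1% lower on average. In all 4 pairs the shares of all genes were 2.03% higher and 0.571% lower. Of 29 receptors of metabolites, nucleotides and proteases, 14 were higher (48.3%) and 5 lower (17.2%), with 4 higher in all 4 pairs, and both other scalings gave 13 and 6. Of 35 lysosomal genes, 17 were higher (48.6%) and 3 lower (8.57%), with 3 and 1 in all 4 pairs, and other scalings gave 13 and 4 (median-ratio) and 14 and 4 (quantile). Of 29 innate sensors, 11 were higher (37.9%) and 4 lower (13.8%), with 2 higher in all 4 pairs, and other scalings gave 9 and 7 (median-ratio) and 6 and 7 (quantile). Of 39 actin and migration genes, 9 were higher (23.1%) and 18 lower (46.2%), with 1 each in all 4 pairs, and other scalings gave 6 and 22 (median-ratio) and 7 and 15 (quantile). Of 36 type I interferon response genes, 7 were higher (19.4%) and 6 lower (16.7%), and other scalings gave 3 and 9 (median-ratio) and 2 and 9 (quantile).

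Small intestine and colon were not alike for all members. Of the 199 higher genes 49 were higher (24.6%) and 7 lower (3.52%) in small intestine than in colon, against 5.63% and 7.1% of all genes, and 143 were not called. Of the 56 lower genes 1 was higher (1.79%) and 20 were lower (35.7%), with 35 not called. Acp5 (3.62, adjusted p = 4.2e-08) and Ggta1 (3.65, adjusted p = 1.1e-06) had the largest small intestine excess among the 14 leading higher genes.

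The level outside the 4 tissues was compared as a description. The mean over bone marrow, blood and spleen lay nearer to lung and skin than to gut for 143 of the 199 higher genes (71.9%), against 46.1% of all tested genes with a gut change above 0, and for 26 of the 56 lower genes (46.4%), against 60.8% of genes with a change below 0. The sign of the change was taken here before the shift by the median gene. Only the members were selected for large changes, so the sets compared are not alike. Ciart measured 0 TPM in blood and spleen on average and Atf3 0.397 ± 0.434 TPM in bone marrow (SD, n = 3). Lta4h averaged 592 ± 27.9 TPM in bone marrow, 231 ± 37.4 TPM in blood and 280.2 ± 51.7 TPM in spleen (SD), between its colon and small intestine levels only in the marrow. Prg3 averaged 2162 ± 362 TPM in bone marrow, 39.5 ± 13.4 TPM in blood and 258 ± 278 TPM in spleen (SD). In a separate table of 11 small intestine libraries sorted by an Nmur1 reporter, with its own gene filter, 196 of the 199 higher genes (98.5%) and 46 of the 56 lower genes (82.1%) were listed, against 80.7% of all genes of the tissue table. The higher genes were selected for high values in small intestine, so their passing a filter there largely follows from the selection. Nothing is read from these shares.

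Some genes with large changes of the mean missed the call in all 4 pairs. Clec4a4, a lectin receptor, measured 521, 509, 405 and 513 TPM in small intestine, 7.59, 1.93 and 1.37 in colon, 0, 0 and 0 in lung and 4.8, 8.35 and 1.51 in skin and had a change of 3.99 ± 0.31 (SE; adjusted p for the mean over tissues = 7.2e-11), but its colon libraries were at the level of skin. Plscr1, Olfm4 and Rgs1, a scramblase, a secreted glycoprotein and a regulator of G protein signalling, had changes of 3.59, 3.59 and 3.55 and were also highest in small intestine (adjusted p in all 4 pairs = 0.413, 0.364 and 0.0752). Ear1 and Ear2, near-identical eosinophil ribonuclease genes whose reads can be split between copies, were lower on average (−4.25 and −4.06) and among the 4 tissues high in lung, with 386, 309 and 300.4 TPM for Ear1. Cd300ld3 and Aif1l had changes of −3.68 and −3.41 (adjusted p in all 4 pairs = 0.299 and 0.0581). All 7 gut libraries were above all 6 lung and skin libraries for Olfm4 and Rgs1, and below them for Cd300ld3 and Aif1l. Il1rl1, the interleukin 33 receptor, and Osm, the cytokine oncostatin M, were lower on average (−2.74 ± 0.23 and −2.42 ± 0.31, SE). Il1rl1 measured 27.02, 33.4 and 39.1 TPM in colon, above lung, and Osm measured 222, 316 and 474 TPM in colon, above skin, so neither kept its sign in all pairs.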

How the data were processed

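Sorted eosinophils were profiled with Smart-seq2, read as 150 bp pairs. The authors deposited TPM values, a unit in which reads are divided by transcript length and scaled to a fixed library total, in 1 table of 24 tissue libraries and 9844 genes. Genes had been removed before deposit, so the columns of the 24 libraries sum to between 796048 and 890768. Since TPM keeps no depth, the precision per library cannot be stated. The submitters' processing notes name the tools cutadapt 2.10, RSEM 1.3.3 and STAR 2.7.5c and the genome mm10. Strandedness and annotation were not given in the sources used here. The labels name 2 sequencers without assigning libraries to them, so no batch could be formed.

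Titles gave groups and replicate numbers. Genes with at least 1 TPM in at least 3 libraries (9806) entered a limma fit (version 3.58.1, R 4.3.3) of log2(TPM + 1) with lmFit and eBayes (trend, two-sided, tissue as the only term). All 24 libraries shared 1 estimate of the spread. A gene was called at a Benjamini-Hochberg adjusted p under 0.05. For all 4 pairs the largest of the 4 p-values was adjusted where the signs were equal, and otherwise set to 1. The fit was tested on simulated data. The pseudocount of 1 understates the change of low genes.

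The rule for named genes took the 14 higher and 14 lower genes with the largest smallest-of-4 change among those called in all 4 pairs, with at least 10 TPM in both tissues of the higher side, no overlap of libraries and a named gene model outside the ribosomal and histone genes. It added the 4 largest changes each way not called in all 4 pairs, up to 4 called members (or the 2 most abundant) of each of 48 lists, and Nmur1. The text names part of these genes, chosen after values and stability were seen. Ptp4a1, Tbc1d15, Arnt, Srebf2, Cyp1b1, Alox5, Herpud1, Anxa1, S100a10, Prg2, Il1rl1, Osm, Cd52, Nab1, Hsp90b1, Atf4 and Hsd17b7 were added for their values or roles. The members, lists and tests were chosen with earlier results of these data known. Alternatives were other pseudocounts, filters, scalings and fits, and leaving out each of the 13 libraries. The single-cell sample was not analysed here. Gene positions come from GENCODE vM21 and promoters from RefSeq, both on the GRCm38 assembly.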

Additional observations from a re-analysis of the deposited data

Results flagged for a closer look

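Among named genes called in all 4 pairs, 32 of 79 (40.5%) also differed between small intestine and colon (limma, adjusted p under 0.05), so their 2 changes against lung and skin differ by the same amount. All values are small intestine minus colon on log2(TPM + 1). In the leading higher genes they were 3.65 for Ggta1, 3.62 for Acp5, 3.28 for Hcar2, 2.41 for Abi3, 1.88 for Adamdec1 and 1.08 for Slco4a1. In sterol genes they were 2.23 for Idi1, 2.05 for Insig1, 1.85 for Hsd17b7, 1.36 for Sc5d and 1.24 for Stard4. Receptors and adhesion genes had 2.56 for Il1r2, 1.82 for Itgax and 0.58 for P2ry14. Lipid mediator genes had 1.73 for Lta4h and −0.55 for Alox15. Transcription factor genes had 1.56 for Egr2, 1.19 for Mafk and −1.91 for Jun. The value was 1.39 for Ahrr, 2.36 for the iron exporter gene Slc40a1 and 0.49 for the oxidase gene Cybb. Of the genes lower in gut, S100a6 had −3.32, Perp −1.78, Ltb −1.45, Sipa1l1 −1.24, Fmnl1 −1.13, Cd52 −1.09, Il18rap −1.04, H2-D1 −0.76, S100a13 −0.58 and Myl6 −0.48.

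The 4 small intestine libraries were the only group large enough for a gap test. In them 1 library stood apart from the other 3 for 13 of 104 named genes (12.5%), where the nominal rate is about 1 in 20. The genes were selected, share the same libraries and in places lie near 0, so no excess is read from this. The high libraries had 266 TPM for Socs2, 82.4 TPM for S100a13, 212 TPM for Ndufb9, 2.36 TPM for Phlda1, 1.5 TPM for Maf, 0.48 TPM for Oaf, 0.75 TPM for Cd300ld3 and 1.86 TPM for Aif1l. The low libraries had 132 TPM for Pecam1, 405 TPM for Clec4a4, 484 TPM for Ccr3 and 0 TPM for Ear2. Jchain, the joining chain of secreted antibodies, measured 909 TPM in small intestine replicate 3 and at most 27.2 TPM in the other small intestine libraries.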

How the results depend on the processing

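Alternatives were run for 97 named genes, not for the cell type markers or the genes at the threshold. Their changes on average kept their direction in each alternative, and 2230 of 2231 comparisons kept their side of the threshold, the exception being Herpud1 (0.62, adjusted p = 0.0927) when libraries were pooled within gut and within lung and skin. For the stricter call in all 4 pairs, 1637 comparisons kept it and 101 lost it. The named genes were chosen after values and stability were seen, so these shares do not describe all members. Over all members, 106 of the 199 higher and 45 of the 56 lower genes were called under all 3 scalings. At a pseudocount of 0.1 it was lost for 14 genes (Socs2, Tiparp, Idi1, Il1r2, Jun, Atf3, Egr2, Oaf, Nab2, Perp, Phlda1, Sipa1l1, Maf and Srsf5), and with only the 4 tissues in the fit for 7 (Ciart, Hsd17b7, Jun, Perp, S100a6, Sipa1l1 and Ndufa4). Median-ratio scaling took it from 6 (Calr, Tiparp, Il1r2, Cybb, Phlda1 and Srsf5) and quantile normalization from 7 (Calr, Tiparp, Cybb, H2-D1, Myl6, Srsf3 and Srsf5). Over all genes, the lower genes in all 4 pairs numbered 92 after median-ratio scaling and 33 with only the 4 tissues in the fit. Quantile normalization gave 1648 higher and 1826 lower genes on average and 125 higher genes in all 4 pairs. Gut against skin alone gave 1437 higher genes and the calls shared by all 3 scalings 106 higher genes in all 4 pairs, 2 alternatives chosen after seeing the data. The causes were not tested.

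Without 1 library at a time, genes higher on average numbered 2631 to 2822 and lower 974 to 1067, genes higher in all 4 pairs 136 to 186 and lower 31 to 60, and small intestine minus colon gave 425 to 594 higher and 520 to 740 lower genes. The lowest count of 31 came without colon replicate 2.

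With a replicate block, Tiparp and Phlda1 lost the call in all 4 pairs, all 4 pairs gave 174 higher and 45 lower genes, the mean over tissues 2879 and 1076, and small intestine minus colon 542 and 683. Same-numbered libraries of different tissues had correlations of their deviations between −0.03 and 0.06 over 16 pairs, so the numbers were not read as pairing. TPM without depth sets no limit for genes listed at 0.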

Other observations

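The Srsf genes encode splicing factors that bind exons and retain or skip them, and this family was picked after its values had been seen. Of 10 tested, 8 were higher and 1 lower in gut on average (against 29.5% and 11.1% of all genes), with a median change of 1.17. Srsf3, Srsf5, Srsf6 and Srsf7 were higher in all 4 pairs. After median-ratio scaling 6 were higher and 1 lower, with 3 in all 4 pairs, and after quantile normalization 6 and 1, with 2. Srsf7 measured 508, 481, 338 and 312 TPM in small intestine, 414, 547 and 309 in colon, 50.9, 57.2 and 57.1 in lung and 181, 201 and 124 in skin (change 1.80 ± 0.14, SE; limma adjusted p = 3.5e-04). Small intestine and colon were close, and lung was below skin. Srsf6 averaged 146 ± 20.8 TPM in small intestine, 147 ± 27.2 in colon, 35.02 ± 6.37 in lung and 60.3 ± 13.4 in skin (SD; limma adjusted p = 0.00169). Srsf5 lost its call in all 4 pairs without 12 of the 13 single libraries (highest limma adjusted p = 0.206, without lung replicate 3), and Srsf3 without 5 of them (0.141, without skin replicate 4).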
